A study of Homo sapiens with 4 samples.

Results

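Interferon-stimulated genes are described here in cells labelled PANC-1, a cell line from a human pancreatic ductal carcinoma, with and without knockout of CFL1, the gene of the actin-severing protein cofilin-1. The 31 members were taken by gene symbol from a fixed list, out of 59885 genes in the authors' deposited table, and all 31 were found, with DDX58 (now also named RIGI) under its older symbol. The control group holds 2 libraries and the knockout group 2 libraries of total RNA. The labels name no guide, clone, vector or culture, and what the p-values weigh is the variation among 4 libraries, possibly technical in origin. Of the 31 members 30 had reads, and IFI44L had none in any library. An adjusted p was given for 26, and the other 5 (OAS2, IFITM1, IFI44, IFI44L and XAF1) had base means below 12.5, the lowest with an adjusted p in the table.

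Interferons are secreted proteins that cells make when sensors such as RIG-I and MDA5 meet foreign RNA. Type I and type III interferons bind their receptors, JAK1 and TYK2 phosphorylate STAT proteins, and STAT2 joins IRF9 in a complex that binds a short promoter sequence, the interferon-stimulated response element. The genes behind that element block viral entry, translation and replication, and several of them encode the sensors and transcription factors of the response itself. Many carcinoma lines keep a part of this programme active without infection.

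The promoters of the members show what they share in sequence. Because the members were listed as interferon-stimulated genes, the response element described above was likely to be found in them beforehand. RefSeq promoters (build GRCh38.p14, 250 bases before to 50 bases from the transcript start) were found for 24 of the 31 members, 31 promoters in all. None was found for IFIT2, OAS2, OASL, MX2, IRF7, IFITM2 and USP18. A core of the response element, GAAANNGAA on either strand and 9 letters long, was present in 21 of these 31 promoters (67.7%), against 8.11% of all 35116 promoters in the same source. The core of the gamma-activated site, TTCNNNGAA, which reads the same on both strands, was present in 9 of 31, against 7.66% of all. Matches can overlap, the paired windows of IFI27 and of IFI44 overlap too, and a match is a description of letters, not of binding.

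The following stretches carry the response element core, in capitals, and are examples from a group of 9 members. Members of that group hold the core and were more than 2-fold above every other library in 1 control library, called control B below. IFIT3 and RSAD2 each have a further promoter with the core that is not shown. The stretches read 5′ to 3′ on the strand of the gene.
IFIT1, chr10:89392493-89392544, plus strand: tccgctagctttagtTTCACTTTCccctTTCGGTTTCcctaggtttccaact
IFIT3, chr10:89327827-89327899, plus strand: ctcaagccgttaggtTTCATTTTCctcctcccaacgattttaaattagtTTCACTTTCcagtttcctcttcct
ISG15, chr1:1013369-1013419, plus strand: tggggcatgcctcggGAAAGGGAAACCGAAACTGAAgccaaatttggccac
RSAD2, chr2:6865791-6865829, plus strand: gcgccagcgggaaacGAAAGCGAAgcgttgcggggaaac
SAMD9, chr7:93118092-93118130, minus strand: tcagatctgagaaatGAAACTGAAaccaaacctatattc

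The same core stands in promoters of members that were low in control B (BST2) or near the other libraries there (IFITM3), so the letters alone do not divide the members.
BST2, chr19:17405731-17405775, minus strand: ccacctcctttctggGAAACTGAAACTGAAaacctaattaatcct
IFITM3, chr11:320872-320927, minus strand: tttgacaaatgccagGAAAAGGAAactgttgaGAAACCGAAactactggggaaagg

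Of members with a promoter in the source, 12 stood over 2-fold above every other library in control B. The response element core was held by 9 of these 12 and by 7 of the 12 others, which include IFI44L without reads. The gamma-activated site core was held by 2 of the first 12 and by 6 of the 12 others. Counted by gene over the whole source, 9.86% held the response element core and 9.38% the gamma-activated site core. DDX58, IRF1 and XAF1 were the 3 of the first group without the response element core in these windows, and IRF1 held the gamma-activated site core.

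**Figure D1:**
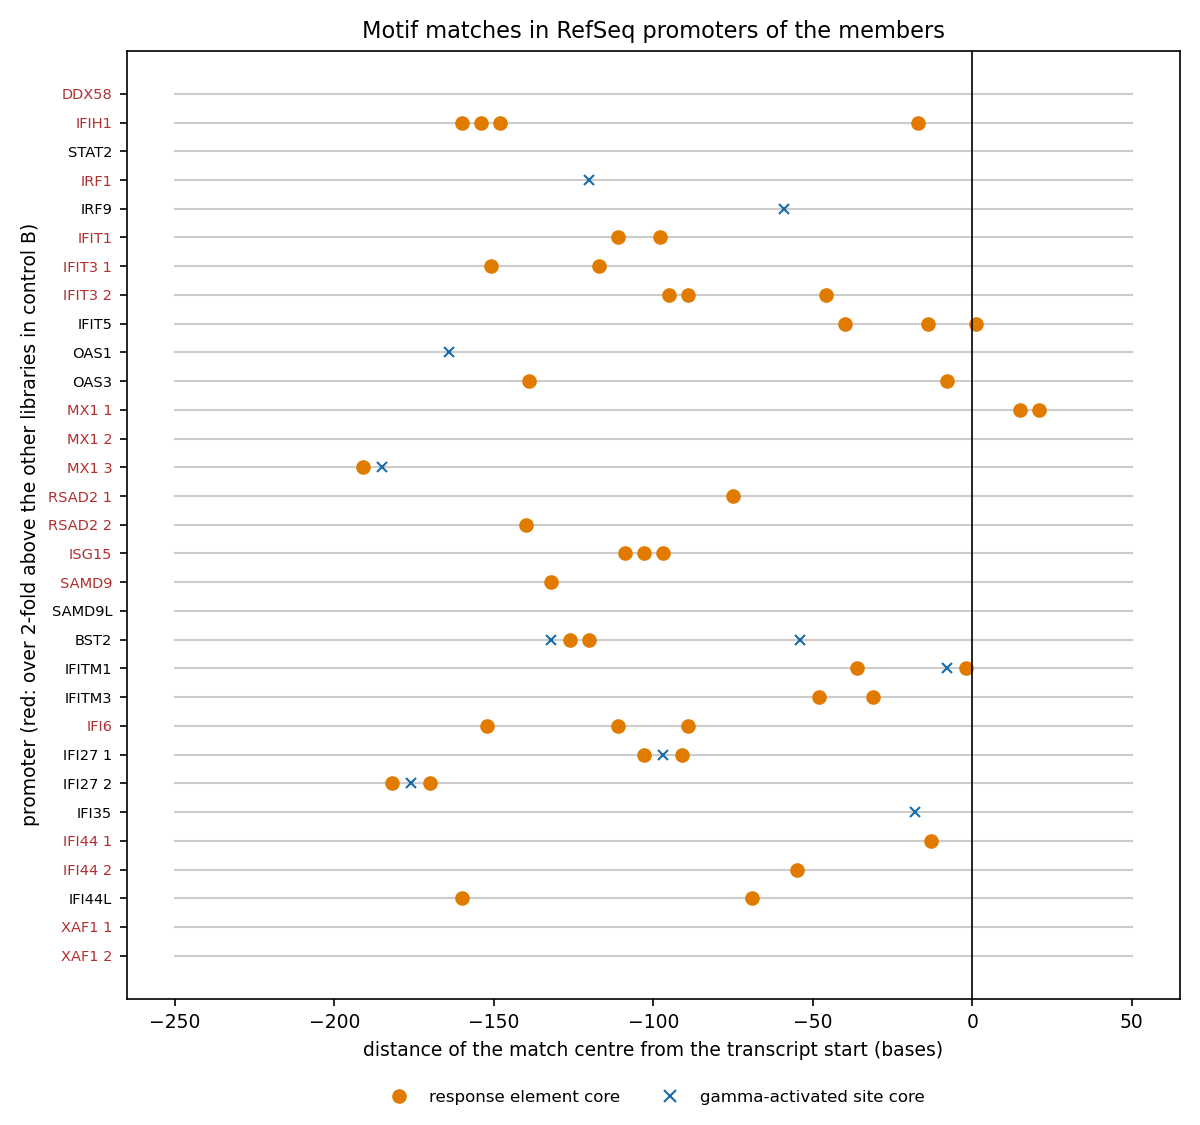
Positions of motif matches in 31 RefSeq promoters of 24 members. The x axis is the distance in bases from the transcript start, circles are the response element core and crosses the gamma-activated site core, and names in red are members over 2-fold above the other 3 libraries in control B; 21 of the 31 promoters carry a circle.

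The authors deposited 1 table of knockout against control without values per library. The reads of each library were recovered from its base means, which are means over the 4 libraries of counts divided by size factors, and are given here as normalized counts. The recovered libraries carry a group but no sample number, so A and B are arbitrary letters. Controls A and B held 14331110 and 14369882 recovered reads, and the knockouts 14651426 and 12361864. A count of 0 allows up to 3 reads, which is 2.66 to 3.35 normalized counts in 1 library, for counting error alone.

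The libraries did not fall by group. Across 17136 genes, log2(normalized count + 1) correlated with a Pearson's r of 0.71 between the controls, 0.98 between control A and each knockout and 0.99 between the knockouts, as a description across genes. CFL1, the targeted gene, had 6276 and 13761 normalized counts in controls A and B, against 2285 and 2487 in the knockouts, and the authors' deposited table gives it a log2 fold change of -2.07 (standard error 0.454, adjusted p 0.00168). Reads of CFL1 thus were lower but present in both knockouts. CDKN2A, which lies in a region known to be deleted in PANC-1, had 906 normalized counts in control A, 1553 and 1303 in the knockouts and 0 in control B. The neighbouring gene MTAP had 1267, 1249 and 1549 in control A and the knockouts and 27.9 in control B. At CDKN2A and MTAP control A and both knockouts therefore go against their label, and control B does not. The ductal keratin gene KRT19 had 1.82 in control A, 0 in both knockouts and 2481 in control B. KRT7 had 3551 and 108 in controls A and B, against 4000 and 3683 in the knockouts, and SOX9 63.6, 3513, 156 and 183 in that order. KRT8, KRT18 and VIM had base means of 14817, 12890 and 20850, above the range in which reads per library were recovered. Whether the 4 libraries are of 1 cell line was not tested, and a difference of control B from the other libraries cannot be told apart from a difference between cell lines. Counts for the list are therefore given against each control library as well as against both.

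No member passed the authors' test, and the members' values set control B apart from the other 3 libraries far more than the knockouts from control A. By the DESeq2 Wald test of the authors' deposited table, 0 of 26 members with an adjusted p were below 0.05, against 0.559% of all 16629 genes with an adjusted p. The lowest adjusted p of a member in the authors' deposited table was 0.161, for IFIT3. An unadjusted p under 0.05 was given by the authors' deposited table for 10 of 30 members, all lower in the knockouts. In that direction it was given for 5.65% of all 30831 genes with reads, which include genes with a mean under 1. Toward higher levels in the knockouts it was given for 0 of 30, against 1.97% of the same genes. The 10 are DDX58, IFIH1, IRF1, IFIT1, IFIT2, IFIT3, OAS2, MX2, RSAD2 and SAMD9. The median log2 fold change of the 26 members in the authors' deposited table was -1.16, against -0.03 over all genes with an adjusted p.

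**Figure D2:**
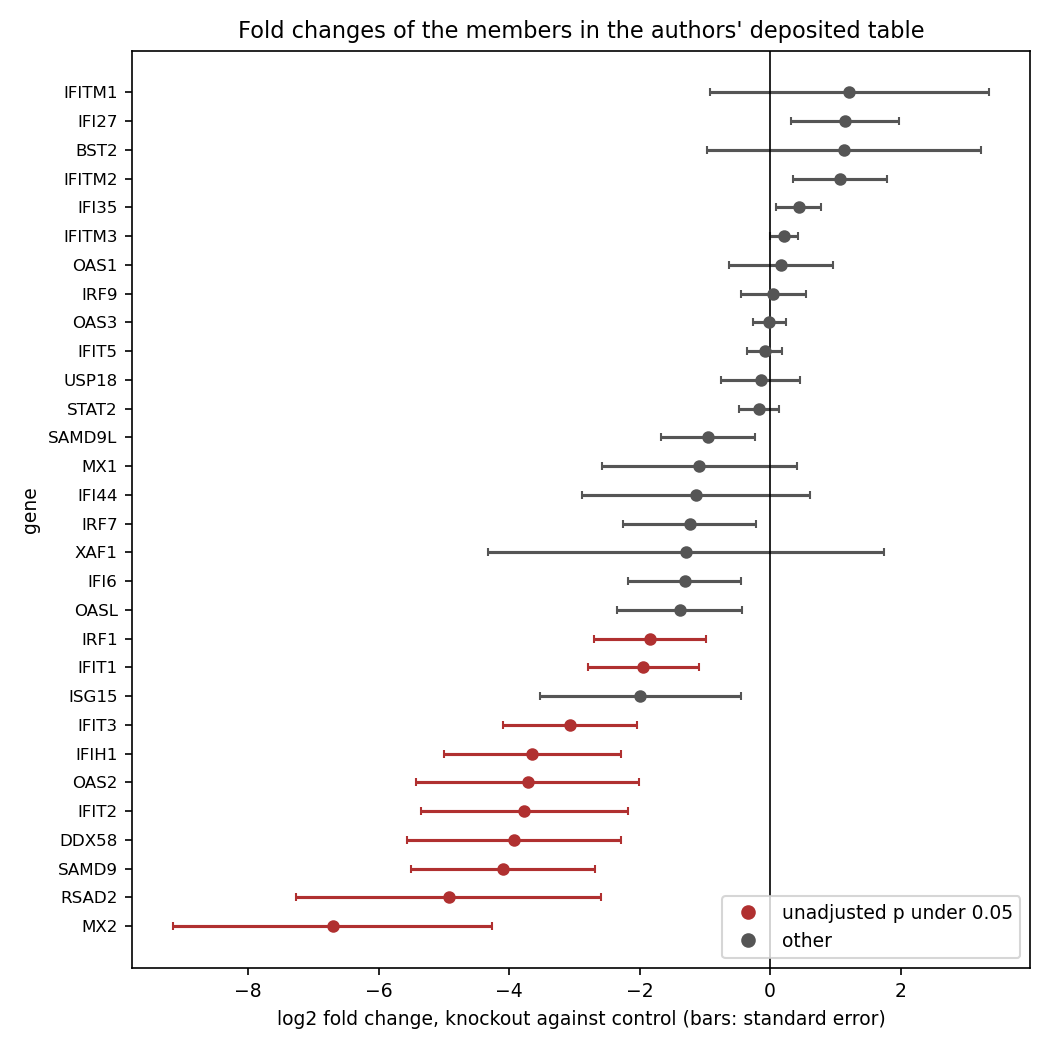
Log2 fold change of knockout against control for the 30 members with reads, from the authors' deposited table, with bars of 1 standard error. Red points have an unadjusted p under 0.05; these 10 lie between -6.71 (MX2) and -1.84 (IRF1), and no member had an adjusted p under 0.05.

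In control B 17 of 30 members were more than 2-fold above each of the other 3 libraries, against 17.3% of all 24819 genes with a mean of at least 1. In the opposite direction 3 of 30, OAS1, BST2 and IFITM2, were more than 2-fold below each other library in control B, against 19.4% of all genes. These folds are on the log2(normalized count + 1) scale, which understates the differences of low genes. Control B lay above control A by a median of 2.59 over the 30 members on that log2 scale, and by 0 over all genes. Against control B the knockout mean had a median difference of -2.00 over the members, and against control A of 0.07. Over all genes both of these medians were within 0.01 of 0.

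**Figure D3:**
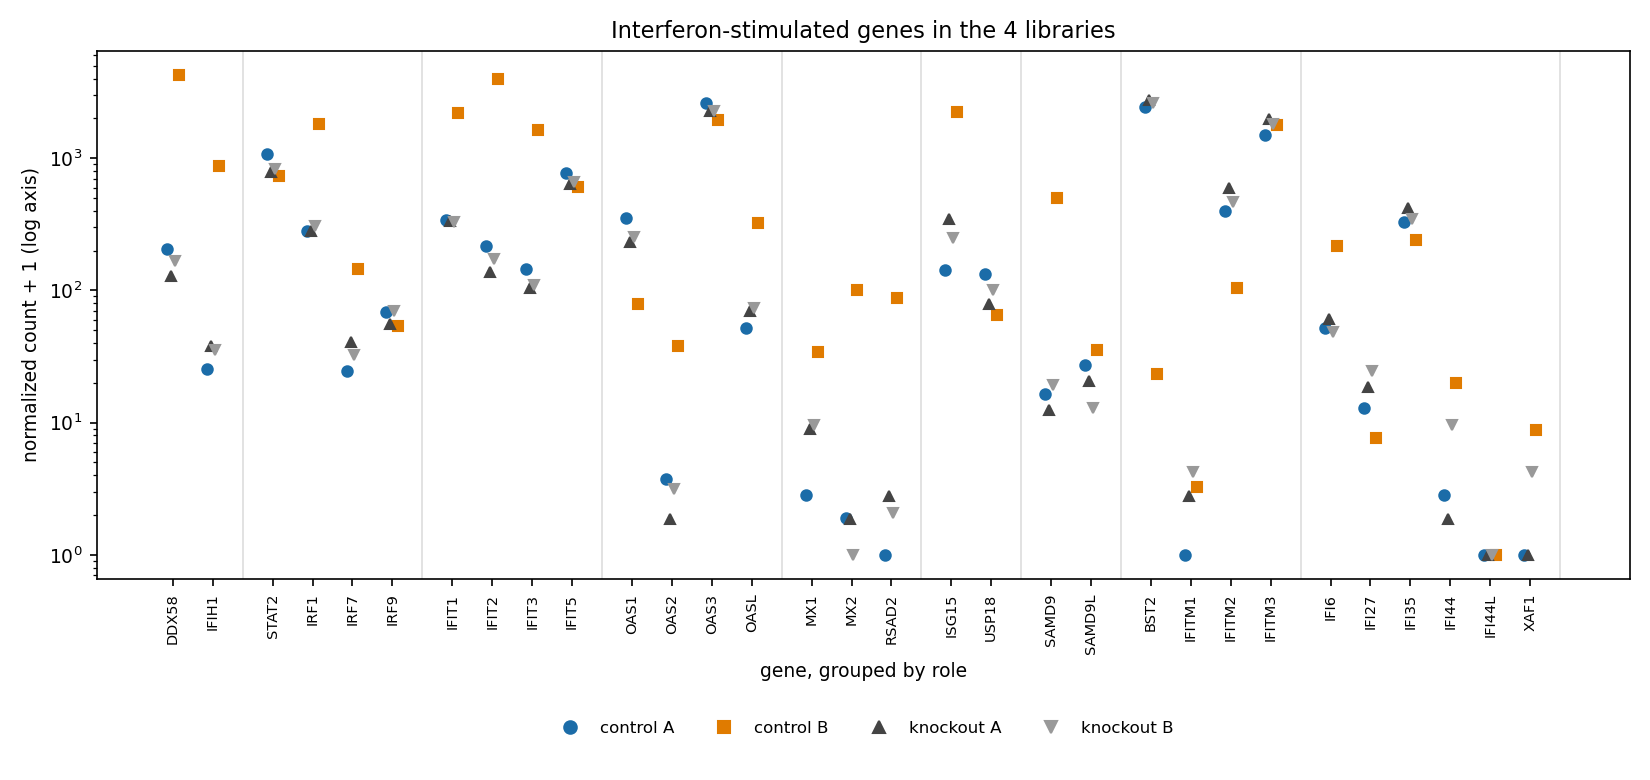
Normalized count + 1 of each of the 31 members in the 4 libraries, on a log axis, grouped by role. Control B (orange squares) stands above the other 3 libraries at 17 members, such as DDX58 and IFIT2, and below them at OAS1, BST2 and IFITM2, while control A lies near the knockouts.

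The cytosolic RNA sensors were among the members with the widest gap. DDX58, which encodes RIG-I, stood at 203 and 4271 normalized counts in controls A and B, against 127 and 167 in the knockouts. Control B was thus the single high library, and both knockouts lay below both controls. For DDX58 the authors' deposited table gives -3.93 as the log2 fold change (standard error 1.64, adjusted p 0.277). IFIH1, which encodes MDA5, stood at 24.5 and 873 normalized counts in controls A and B, against 37.2 and 34.5 in the knockouts. For IFIH1 the knockouts lay between the controls, above control A. IFIH1 has -3.65 in the authors' deposited table (standard error 1.35, adjusted p 0.216).

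The transcription factors of the response divided into those high in control B and those near even. IRF1, a factor induced early by interferons, stood at 278 and 1814 normalized counts in controls A and B, against 279 and 306 in the knockouts. IRF7, which drives interferon genes, stood at 23.6 and 144 in controls A and B, against 39.8 and 31.3 in the knockouts, with the knockouts between the controls for both IRF1 and IRF7. STAT2 stood at 1081 and 738 normalized counts in controls A and B, against 785 and 830 in the knockouts, so its highest library was control A. IRF9, the DNA-binding partner of STAT2, stood at 67.3 and 52.5 in controls A and B, against 54.9 and 69.0 in the knockouts, and its groups overlapped. In the authors' deposited table the 4 factors had log2 fold changes from -1.84 (IRF1, standard error 0.857) to 0.04 (IRF9, standard error 0.498) and adjusted p from 0.350 to 0.971.

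The IFIT family, whose proteins bind viral RNA and hold back its translation, split 3 to 1. IFIT2 stood at 217 and 3994 normalized counts in controls A and B, against 137 and 171 in the knockouts. IFIT3 stood at 144 and 1639 in controls A and B, against 104 and 108 in the knockouts. IFIT1 stood at 341 and 2211 in controls A and B, against 333 and 330 in the knockouts. In these 3 genes both knockouts lay below both controls, but by little against control A: the knockout mean of normalized counts was 0.711 times control A for IFIT2, 0.739 times for IFIT3 and 0.973 times for IFIT1. Against the knockout mean, control B was 25.9-fold higher for IFIT2, 15.4-fold for IFIT3 and 6.67-fold for IFIT1. IFIT5 stood at 775 and 601 normalized counts in controls A and B, against 633 and 664 in the knockouts, with control B as the lowest library. The authors' deposited table gives log2 fold changes of -3.77 (standard error 1.59) for IFIT2, -3.07 (standard error 1.03) for IFIT3, -1.94 (standard error 0.849) for IFIT1 and -0.09 (standard error 0.266) for IFIT5, with adjusted p of 0.285, 0.161, 0.313 and 0.888.

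The OAS family, most of whose proteins make the second messenger that activates RNase L, showed both directions among its genes. OAS1 stood at 354 and 78.2 normalized counts in controls A and B, against 231 and 254 in the knockouts, so control B was the lowest library and control A the highest. OAS3 stood at 2615 and 1957 in controls A and B, against 2270 and 2259 in the knockouts, which lay between the controls. OAS2 had 3, 33, 1 and 2 reads in control A, control B, knockout A and knockout B, and OASL 50.9, 320, 69.1 and 72.3 normalized counts in the same order. OAS2 and OASL thus were high in control B, and OAS1 and OAS3 were not. None of the 4 had an unadjusted p under 0.05 in the authors' deposited table except OAS2, at 0.0296.

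MX1, MX2 and RSAD2, antiviral effectors with little expression in unstimulated cells, were read mainly in control B. MX1, a dynamin-like GTPase, had 2, 30, 9 and 8 reads in control A, control B, knockout A and knockout B. The nuclear-pore GTPase MX2 had 1, 89, 1 and 0 reads in that order. RSAD2, which encodes viperin, had 0, 78, 2 and 1 reads. Outside control B these 3 genes therefore rested on at most 9 reads in a library, and their folds against control A carry wide counting error. The authors' deposited table gives MX2 a log2 fold change of -6.71 (standard error 2.44, adjusted p 0.206) and RSAD2 one of -4.93 (standard error 2.34, adjusted p 0.361).

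ISG15, a ubiquitin-like modifier, was high in control B and higher in both knockouts than in control A. It stood at 142 and 2215 normalized counts in controls A and B, against 348 and 246 in the knockouts, so the knockouts lay between the controls, and their mean was 2.09 times control A. Without control B, limma gave ISG15 a log2 difference of 1.04 with an unadjusted p of 0.0122 and an adjusted p of 0.273. In the authors' deposited table, which takes both controls, ISG15 had the opposite sign, a log2 fold change of -1.99 (standard error 1.53, adjusted p 0.585). USP18, the protease that removes ISG15 and dampens receptor signalling, stood at 132 and 63.7 normalized counts in controls A and B, against 77.9 and 99.2 in the knockouts. Its order across libraries was the reverse of that of ISG15, with control A highest and control B lowest.

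SAMD9 and SAMD9L, adjacent antiviral genes that restrict poxviruses, had unlike levels. SAMD9 stood at 15.5 and 496 normalized counts in controls A and B, against 11.5 and 18.3 in the knockouts, a gap of control B alone. SAMD9L stood at 26.4 and 34.6 in controls A and B, against 19.5 and 11.9 in the knockouts, with both knockouts below both controls. It had only 29, 31, 22 and 11 reads in control A, control B, knockout A and knockout B, so its order carries wide counting error. The authors' deposited table gives log2 fold changes of -4.10 for SAMD9 (standard error 1.41, adjusted p 0.171) and -0.95 for SAMD9L (standard error 0.718, adjusted p 0.579).

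Among the membrane-bound restriction factors, BST2 and IFITM2 were low in control B. BST2, or tetherin, which holds budding virions at the cell surface, stood at 2421 and 22.4 normalized counts in controls A and B, against 2757 and 2600 in the knockouts. Control B was the single low library, and the knockout mean was 1.11 times control A and 120-fold above control B. IFITM2, which blocks virus fusion in endosomes, stood at 401 and 103 in controls A and B, against 595 and 462 in the knockouts. IFITM3 of the same family stood at 1506 and 1765 in controls A and B, against 1975 and 1807 in the knockouts, and IFITM1 had 0, 2, 2 and 3 reads. Both knockouts thus lay above both controls for BST2, IFITM2 and IFITM3, but not by much against the nearer control. The narrowest gap was 1807 against 1765 for IFITM3, 2600 against 2421 for BST2 and 462 against 401 for IFITM2. IFITM genes are near-identical in sequence, and the division of reads between them is uncertain. Log2 fold changes in the authors' deposited table were 1.13 (standard error 2.10) for BST2, 1.07 (standard error 0.721) for IFITM2 and 0.21 (standard error 0.212) for IFITM3, with adjusted p of 0.815, 0.526 and 0.669.

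Of the remaining members, IFI6 was high in control B, and the others had smaller gaps or few reads. IFI6, a mitochondrial protein gene, stood at 50.9 and 217 normalized counts in controls A and B, against 60.2 and 47.4 in the knockouts. IFI35 stood at 328 and 238 in controls A and B, against 421 and 348 in the knockouts, and IFI27 had 13 and 6 reads against 20 and 22. For IFI35 and IFI27 both knockouts lay above both controls. IFI44 had 2, 17, 1 and 8 reads in control A, control B, knockout A and knockout B, and XAF1 0, 7, 0 and 3, so the knockouts differed from each other there by 2.35 and 2.08 on the log2 scale.

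Over the whole list both knockouts lay below both controls for 7 of 30 members, against 20.0% of all genes, and above both controls for 5 of 30, against 21.1%. The 7 are DDX58, IFIT1, IFIT2, IFIT3, OAS2, MX2 and SAMD9L, and the 5 are BST2, IFITM2, IFITM3, IFI27 and IFI35. Both shares lie near those of all genes. Against control A alone the knockout mean was more than 2-fold lower for 0 of 30 members, against 7.39% of all genes, and more than 2-fold higher for 5 of 30, against 7.21%. Of these 5, MX1, RSAD2, IFITM1 and XAF1 had at most 2 reads in control A, and ISG15 had 156.

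**Figure D4:**
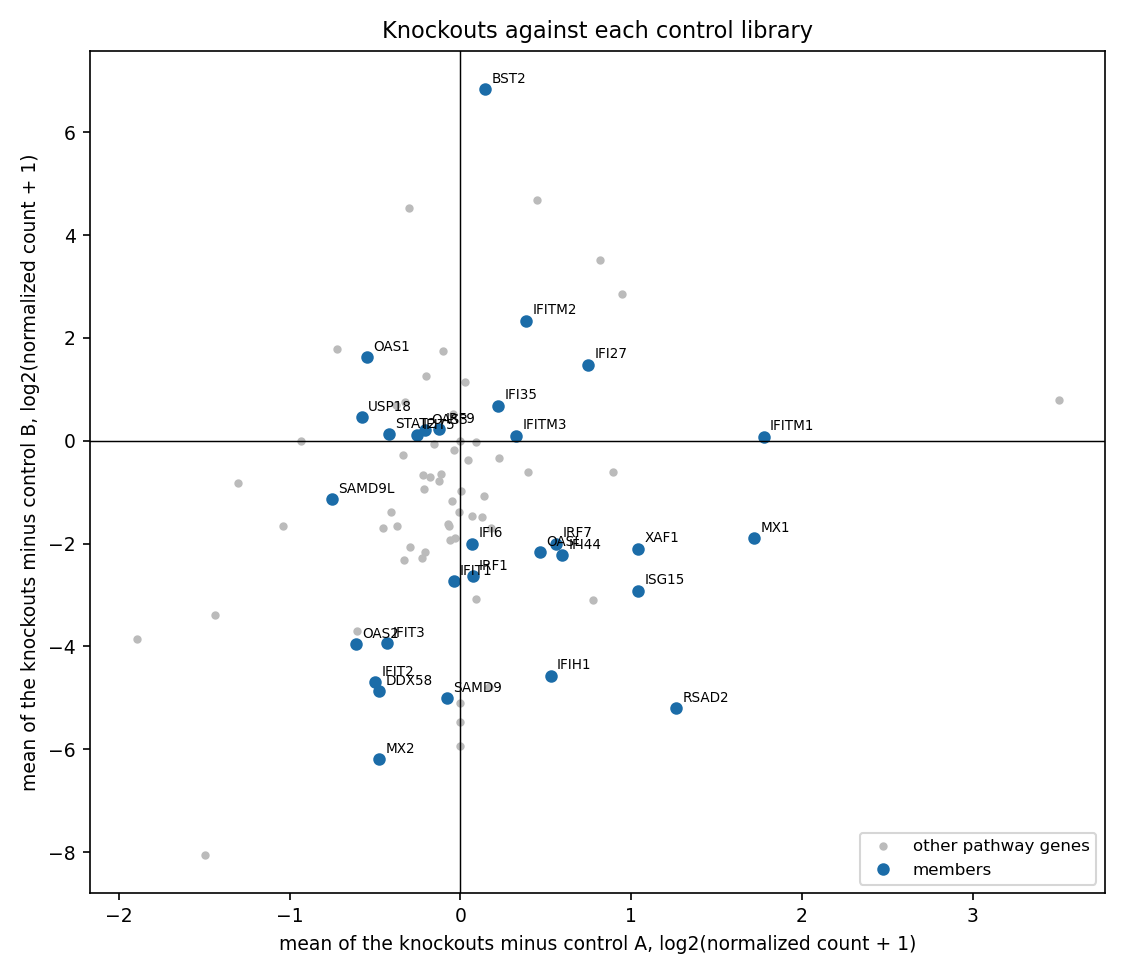
Difference of the knockout mean from control A (x axis) and from control B (y axis) on the log2(normalized count + 1) scale for 30 members (blue) and 57 other interferon pathway genes (grey). Members spread from -6.19 (MX2) to 6.84 (BST2) against control B and from -0.75 (SAMD9L) to 1.78 (IFITM1) against control A.

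On the recovered reads the tests turned on the control library. Limma with all 4 libraries called 0 of 30 members at an adjusted p under 0.05, with 0 at an unadjusted p under 0.05, and limma with voom gave 0 and 0 likewise. Over all 24819 genes limma called 0 as well, with 495 at an unadjusted p under 0.05, and voom 0 with 431. When control A was left out limma called 12 of 30 members as lower in the knockouts, against 16.3% of all 25006 genes, and 3 as higher, against 17.1%. Those 12 are DDX58, IFIH1, IRF1, IFIT1, IFIT2, IFIT3, OASL, MX1, MX2, RSAD2, ISG15 and SAMD9, and the 3 are OAS1, BST2 and IFITM2, with limma adjusted p from 0.0250 to 0.0488. When control B was left out it called 0 of 28 members, and 4 had an unadjusted p under 0.05, against 14.1% of all 23758 genes, so the members' share lay near that of all genes. The 4 are ISG15, IFITM3, STAT2 and OAS1, at limma adjusted p from 0.273 to 0.333. In both of these fits the lone control is assumed to vary as the knockouts do. Members were thus called in the fit without control A, and in no other limma fit run.

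Levels per length allow a rough comparison between members, since the longest transcript of a gene need not be the one expressed. Over the 4 libraries the mean normalized count per kilobase of the longest transcript was highest for IFITM3 (2182), BST2 (1914) and ISG15 (937), followed by IFITM2 (437), OAS3 (339) and IFIT2 (305). In the knockouts the order at the top was BST2, with 2706 and 2551 per kilobase, and IFITM3, with 2444 and 2237. The ranges did not overlap, but the order also rests on the transcript lengths taken and on the uncertain division of IFITM reads. In control B ISG15 led with 2815 per kilobase, before IFITM3 with 2184 and IFIT2 with 1079, and BST2 stood at 21.9.

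The wider interferon pathway, 58 genes that are no members, gave no called gene either. By the DESeq2 Wald test of the authors' deposited table, 0 of 48 with an adjusted p were below 0.05, beside 0.559% of 16629 genes. That table's unadjusted Wald p was under 0.05 for 10 of 57, all lower in the knockouts. Of the 30831 genes with reads, which include genes with a mean under 1, 5.65% were lower and 1.97% higher at that threshold. Limma on all 4 libraries called 0 of 56, beside 0 of all 24819 genes. Its unadjusted p was under 0.05 for 1 of 56, CMPK2, beside 495 of all 24819 genes. CMPK2, named after its value was seen, had 3, 12, 0 and 0 reads in control A, control B, knockout A and knockout B. It was thus lower in the knockouts but with few reads, and limma's count was 0 with voom or a mean of at least 10. Leaving out control A gave 22 of 56 called lower and 6 called higher, beside 16.3% and 17.1% of all genes. Leaving out control B gave 0 of 50 called, and 6 had an unadjusted p under 0.05, beside 14.1% of all genes. In control B 25 of 56 were over 2-fold above each other library and 8 were over 2-fold below, beside 17.3% and 19.4% of all genes. Over the 56 genes the knockout mean differed from control A by a median of -0.07 on the log2 scale, and from control B by -1.02.

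Among the ligands, the type III interferon genes had reads almost solely in control B, and they are named here after their values were seen. IFNL1 had 2 reads in control A, 236 in control B and 0 in each knockout, and IFNL2 and IFNL3, near-identical genes whose reads may be divided between them, had 54 and 39 there and 0 elsewhere. IFNB1 had 2, 3, 1 and 0 reads in control A, control B, knockout A and knockout B. IFNA1 had 3, 12, 1 and 0 reads in the same order, and IFNG had none. The type I gene IFNE stood at 26.4 and 92.8 normalized counts in controls A and B, against 22.1 and 20.5 in the knockouts. IFNK, also of type I, went the other way in control B, at 27.3 and 0 normalized counts in controls A and B, against 18.6 and 25.9 in the knockouts. The authors' deposited table gives IFNL1 a log2 fold change of -9.53 (standard error 4.33, adjusted p 0.339). This value was fitted with no read in either knockout and is no bound.

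The most abundant pathway genes were highest in control B. ADAR, an RNA editing enzyme, stood at 5754 and 9035 normalized counts in controls A and B, against 5126 and 5424 in the knockouts. JAK1, the kinase shared by the interferon receptors, stood at 2911 and 10643 in controls A and B, against 2679 and 2909 in the knockouts. STAT3, a further STAT factor, had 4029 and 5401 in controls A and B against 3964 and 4358. The knockouts lay near control A for all 3. TRIM25, which ubiquitinates RIG-I, stood at 2381 and 8602 in controls A and B, against 2162 and 2518 in the knockouts, and the adaptor gene MAVS 2767 and 5419 against 1971 and 2201. Of these 5 genes, both knockouts lay below both controls for ADAR, JAK1 and MAVS, with knockout B of JAK1 almost level with control A, and none had an adjusted p below 0.293 in the authors' deposited table.

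**Figure D5:**
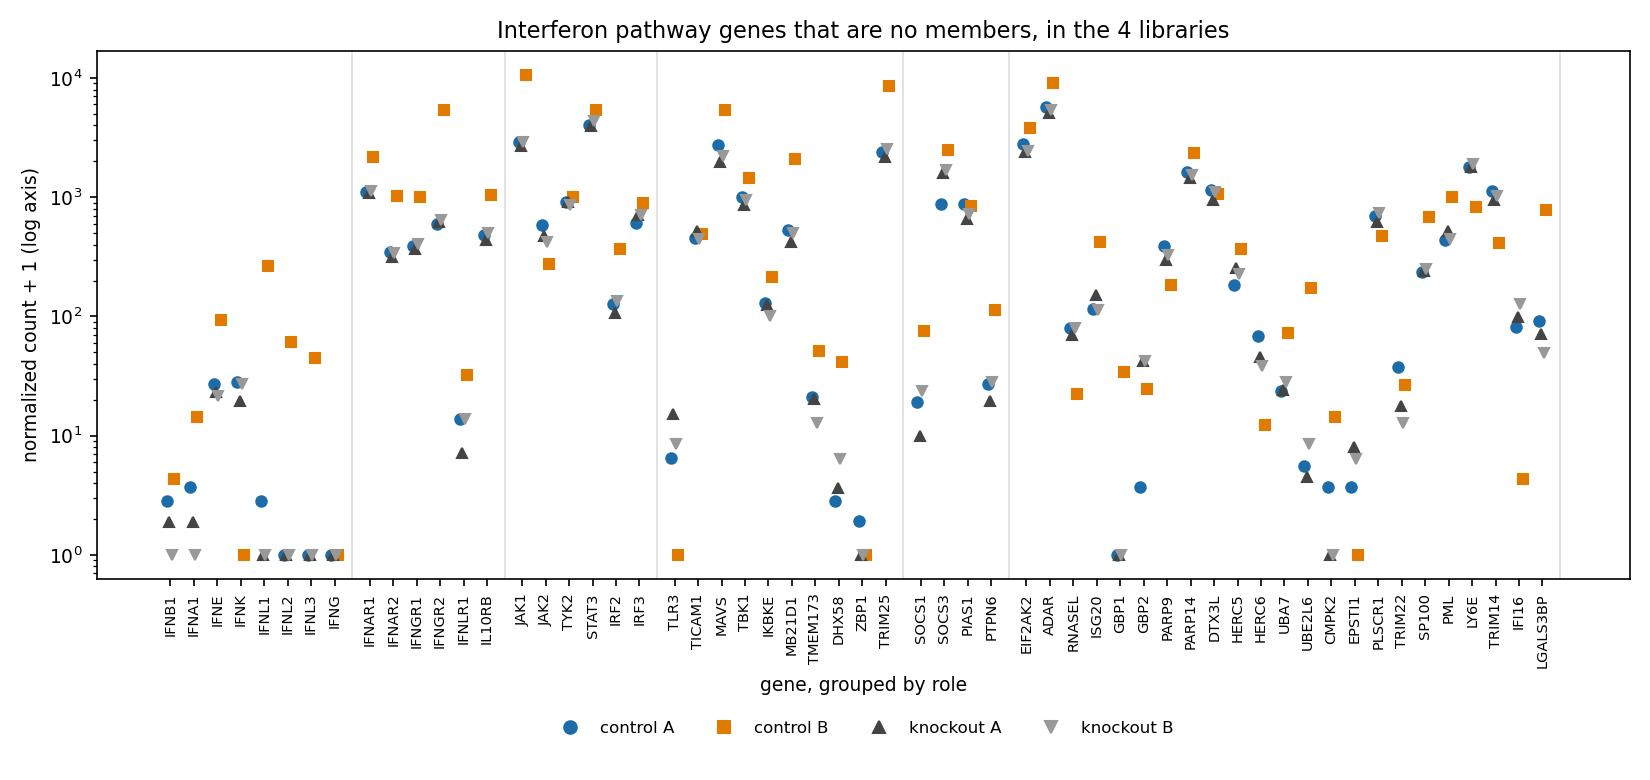
Normalized count + 1 of 57 interferon pathway genes that are no members, in the 4 libraries, on a log axis, grouped by role from ligands to further induced genes. Control B stands highest at IFNL1 to IFNL3 and at all 6 receptor genes, and lowest at IFNK and IFI16.

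Markers of other cell types were read beside these genes. The 8 leukocyte markers summed to 47.3 and 1319 normalized counts in controls A and B, against 50.5 and 36.7 in the knockouts. In control B 1217 of these came from CD68, and the pan-leukocyte gene PTPRC and LYZ were at 0. The 3 markers of plasmacytoid dendritic cells, which make much interferon, summed to 3.64 and 23.5 in controls A and B, against 2.66 and 4.31 in the knockouts, with CLEC4C at 0 in every library. The 2 endothelial markers measured summed to 38.2 and 8.94 in controls A and B, against 15.9 and 19.4 in the knockouts. Fibroblast markers, 6 in number, summed to 869 and 1584 in controls A and B, against 1134 and 1014 in the knockouts, mostly from COL1A1 and PDGFRB (in control B from COL1A1), with LUM at 0. Whether other cells take part in the members' levels was not tested, and in bulk RNA a changed share of cells and a changed level per cell cannot be told apart.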

How the data were processed

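The deposited file is the authors' DESeq2 table of CFL1 knockout against control. Per the submitters' processing notes, cutadapt, FastQC, STAR, RSEM and hg19 were used, with no versions. The authors' base mean is a signal: each library's count is divided by its size factor and the 4 values are averaged. The authors' log2 fold change has a standard error, and their ratio, the authors' Wald statistic, is a score that was not used. The deposited p-value columns are unadjusted and adjusted, the latter equal to a Benjamini-Hochberg adjustment over the 16629 genes that have one.

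Whole reads per library were recovered by searching for sets of 4 read numbers whose weighted sum equals the base mean to its 15 printed digits, with the steps taken from genes with 1 read. The dispersion implied by the deposited standard error then gave a fold change for each solution. Reads were recovered for 30657 of 30831 genes (99.4%). With reads in both groups and a base mean of at least 10, 16882 of 16944 genes matched the deposited fold change to 0.001 on the log2 scale. Of base means shifted on purpose, 0 of 600 under 3000 gave such a solution, and 31 of 150 between 3000 and 10000, where 985 of 1047 real genes and 0 of 150 shifted ones lay within 1e-05. All 30 members with reads had a single solution. CFL1, ADAR, JAK1, STAT3, TRIM25 and MAVS have base means between 3000 and 10000, so their values per library are less certain. The 169 genes at or above 10000 were left out. How RSEM's estimates became the whole numbers recovered is not given in the sources used here.

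Limma 3.58.1 (R 4.3.3) with its trend option took log2(normalized count + 1) where the mean reached 1, and was adjusted over all genes by Benjamini-Hochberg. It was also run on simulated reads drawn from the levels of control A and the knockouts. No simulated library stood apart as control B did, so that run does not bear on the counts of called members. Transcript lengths are those of GENCODE, and promoters those of RefSeq on GRCh38.p14, another build than that of the file, so genes were matched by symbol. Python 3.11.15, numpy 2.4.6, pandas 2.3.3, numba 0.67.0 and matplotlib 3.10.9 were used. The naming rule takes every member, the 6 most abundant pathway genes and, of called pathway genes, up to 3 in each direction. The ligands and CMPK2 are named outside this rule. Of the 6 abundant genes, 1 is not reported here. Members, lists and tests were chosen with earlier results of these data known, so no count here is independent support. The endothelial marker PECAM1 was not analysed here.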

Additional observations from a re-analysis of the deposited data

How the results depend on the processing

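The count of called members stayed at 0 with adjustment over every gene, with base means of at least 10 or 100 and with an adjusted p under 0.01, and so did the count of pathway genes. At an unadjusted p under 0.05 it was 10 for the members and 10 for the pathway genes. On the recovered reads limma called 0 members when the pseudocount was 0.1, the mean filter was 10, and under scaling to the recovered total, upper quartile scaling and voom. Leaving out 1 library gave from 0 to 15 called members, the 15 without control A. The median of the members against control A, 0.07, was -0.0089 with knockout A alone and -0.040 over members with a base mean of at least 10, an alternative chosen after seeing the data, so its sign is not fixed. The median against control B, -2.00, was -1.71 with scaling to the recovered total, which moved the median of all genes against control B to 0.27, and -1.66 with knockout B alone. No member changed sign against either control under the other pseudocount or either other scaling. Members with under 10 reads in most libraries (OAS2, MX1, MX2, RSAD2, IFITM1, IFI44 and XAF1) are limited by depth. No paired analysis was possible because the recovered libraries carry a group and no sample number.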
